A study of Mus musculus with 21 samples.

Results

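The DNA methylation machinery of mouse embryonic stem cells was followed through 9 genes, the DNA methyltransferases Dnmt1, Dnmt3a and Dnmt3b with their cofactors Dnmt3l and Uhrf1, the 5-methylcytosine dioxygenases Tet1, Tet2 and Tet3, and the DNA glycosylase Tdg. They were taken by gene symbol from both deposited tables of raw counts, as 9 of 40838 genes, and each symbol named a single row in each table. Poly(A) RNA had been sequenced from 21 libraries in 8 groups, all of mouse embryonic stem cells after 48 h in medium with 10% dialyzed serum and pyruvate at 0.2 mM. SL is taken to mean serum plus LIF, the cytokine that keeps such cells undifferentiated, and SL2i to add inhibitors that block GSK3B and MEK. The first table held cells with LbNOX (3 libraries) and cells with the vector (3 libraries), all in SL. LbNOX, from a bacterium, uses oxygen to turn NADH into NAD+. The other table held SLC16A1 clone 1, SLC16A1 clone 2 and the line chr8A, each with 2 libraries in SL2i and 3 libraries in SL. SLC16A1 encodes MCT1, a transporter through which lactate and pyruvate enter and leave the cell. The labels do not say how the clones were altered, and each clone is a single line. chr8A was taken as the control line, by its place in the design.

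Methylated CpG dinucleotides are copied after replication by DNMT1, which UHRF1 brings to hemimethylated sites, and new methylation is laid down by DNMT3A and DNMT3B with the inactive cofactor DNMT3L. TET enzymes oxidize methylated cytosine with 2-oxoglutarate and iron, and TDG removes the further oxidized bases for repair. Mouse embryonic stem cells grown with both inhibitors are known for a genome with little CpG methylation, while cells in serum and LIF are highly methylated. RNA levels do not measure the enzymes or the methylation itself, and neither was measured here.

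Promoter windows of 4 members are shown because these genes had some of the widest differences between media and differ widely in CpG content. Each window is the 250 bases before a transcription start in RefSeq on build GRCm38.p6, an older build than the GRCm39 used for the counts. Letters are lower case and run 5′ to 3′ on the gene's strand, with CpG dinucleotides in capitals. Of several starts, the start with the most CpG is shown for Uhrf1 and Dnmt3l.
Dnmt3b (chr2:153649199-153649448, plus strand): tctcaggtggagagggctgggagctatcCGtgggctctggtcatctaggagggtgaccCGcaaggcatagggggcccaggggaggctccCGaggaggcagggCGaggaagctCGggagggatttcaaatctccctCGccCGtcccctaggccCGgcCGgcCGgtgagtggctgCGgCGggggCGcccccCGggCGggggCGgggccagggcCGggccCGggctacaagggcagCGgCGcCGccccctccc
Dnmt3l (chr10:78042037-78042286, plus strand): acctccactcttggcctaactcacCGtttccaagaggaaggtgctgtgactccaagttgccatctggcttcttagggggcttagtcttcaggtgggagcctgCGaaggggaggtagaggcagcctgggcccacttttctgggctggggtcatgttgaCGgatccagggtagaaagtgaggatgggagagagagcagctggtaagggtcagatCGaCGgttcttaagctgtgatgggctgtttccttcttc
Uhrf1 (chr17:56304063-56304312, plus strand): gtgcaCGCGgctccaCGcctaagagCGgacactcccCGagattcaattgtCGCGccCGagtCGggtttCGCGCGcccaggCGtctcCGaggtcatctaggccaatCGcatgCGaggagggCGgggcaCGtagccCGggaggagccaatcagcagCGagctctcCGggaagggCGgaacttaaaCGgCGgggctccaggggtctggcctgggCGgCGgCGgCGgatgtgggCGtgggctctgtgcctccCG
Tet2 (chr3:133544391-133544640, minus strand): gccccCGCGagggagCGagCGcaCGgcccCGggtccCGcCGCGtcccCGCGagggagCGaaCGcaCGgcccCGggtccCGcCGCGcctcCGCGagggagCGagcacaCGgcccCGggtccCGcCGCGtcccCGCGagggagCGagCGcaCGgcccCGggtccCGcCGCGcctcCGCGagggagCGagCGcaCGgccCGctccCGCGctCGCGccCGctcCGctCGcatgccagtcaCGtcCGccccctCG
The Tet2 window held 51 CpG dinucleotides, and 99.9% of 32851 mouse promoter windows of the same length held fewer. Uhrf1 held 30 (94.1% held fewer), Dnmt3b held 21 (83.7%) and Dnmt3l held 5 (44.4%). Among motifs searched on both strands, the GC box GGGCGG, found in 32.7% of all windows, occurred 3 times before Dnmt3b, 3 times before Uhrf1 and 1 time before Tet2. Its CpG is also among the CpGs counted. No match to CACGTG (6.02% of all windows), TTTCCCGC (0.895%), TTTGGCGC (0.417%), CTTTGAT (3.21%), CTTTGTT (5.03%) or TTCNNNGAA (7.02%) lay in these 4 windows, which says only that those letters were not there. The window of another Dnmt3l start, with 4 CpG, held GGGCGG 2 times, CACGTG 1 time and TTCNNNGAA 1 time, and that of its remaining start held no match. Which start these cells use was not tested.

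Total counts were 16521594 to 30008895 in the LbNOX table, and the other table had 9784408 to 10908368 in SL2i and 15802072 to 30145771 in SL. All SL2i libraries were thus shallower than all SL libraries, and with every library thinned to equal depth the same number of members passed in each of the 3 comparisons of media. Thinning evens out depth only. The labels do not say whether SL2i and SL libraries were prepared or sequenced together, and if they were not, medium and batch cannot be told apart. All 9 members passed the filter on low counts in both tables. Levels are CPM, counts per 1e6 counts of the library, after TMM normalization, each table separately, and fold changes are log2 ± standard error (SE). A gene is called where the Benjamini-Hochberg adjusted p over all genes of edgeR's quasi-likelihood F test is under 0.05. Nothing in the labels says that libraries of a group came from separate cultures, so the p-values reflect the spread among these libraries, which may be technical. Slc16a1, the gene that names the clones, was read in every group. In SL2i it stood at 123 ± 0.732 CPM in clone 1 and 78.6 ± 0.122 in clone 2, against 162 ± 6.96 in chr8A (mean ± SD, n = 2 each). In SL it stood at 171 ± 10.4 CPM in clone 1 and 93.5 ± 2.65 in clone 2, against 198 ± 2.99 in chr8A (n = 3 each). All 6 embryonic stem cell markers were present in every group, with summed levels of 5210 to 5980 CPM in SL2i and 3070 to 3610 CPM in SL. Of these, Utf1 was lower in SL2i in each line, at 85.6 ± 9.32 CPM in SL2i chr8A and 337 ± 7.28 CPM in SL chr8A. The other markers had higher means in SL2i in each line. The 8 fibroblast markers summed to 9.18 to 11.2 CPM in SL2i, where Col3a1, Dcn and Postn had no read, and to 23.5 to 48.1 CPM in SL. Extraembryonic endoderm markers summed to 2.01 to 3.47 CPM in SL2i and 5.38 to 9.03 CPM in SL. Summed trophoblast markers went the other way in chr8A, at 20.4 to 22.7 CPM in SL2i and 13.6 to 15.2 CPM in SL. Over all groups their sums overlapped, at 20.4 to 39.8 CPM in SL2i and 11.9 to 23 CPM in SL, highest in LbNOX cells. In chr8A, Cdx2, Eomes and Gata3 were higher in SL2i, Hand1 and Plac1 were lower, and Elf5 had few reads. The fibroblast marker Pdgfrb, singled out after its values were seen, was higher too, at 6.55 ± 0.929 CPM in SL2i chr8A. In SL chr8A it held 1.85 ± 0.162 CPM. The part of these cells in the differences between media was not tested. A lower level can mean fewer cells that use a gene or less RNA per cell, which bulk libraries cannot tell apart.

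Levels per kilobase of the deposited gene length order the members within a library. In chr8A cells in SL, Dnmt3b stood highest at 194 ± 4.33 CPM per kb (mean ± SD, n = 3), followed by Dnmt3l at 169 ± 5.56, Uhrf1 at 92.8 ± 1.19, Dnmt1 at 58.2 ± 0.362 and Tet1 at 28.3 ± 0.414. Below them were Tdg at 8.67 ± 0.660, Dnmt3a at 8.67 ± 0.242, Tet2 at 6.41 ± 0.231 and Tet3 at 3.25 ± 0.192 CPM per kb. Tdg and Dnmt3a did not differ beyond their spread. The deposited length of Dnmt3a, 24591 bases, is the longest of the 9 and lowers its level on this scale. In chr8A cells in SL2i the order was led by Uhrf1 at 264 ± 2.42 CPM per kb (n = 2), then Dnmt1 at 77.2 ± 0.839, Dnmt3l at 59.0 ± 0.290, Tet1 at 28.8 ± 2.64, Tet2 at 27.2 ± 0.706 and Dnmt3b at 25.9 ± 0.275. The spread of Tet1 there was wide beside its distance from Tet2 and Dnmt3b, although within each library Tet1 stood above both. Thus the gene with the highest level in SL, Dnmt3b, was 1 of 3 members within a narrow band of levels in SL2i.

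**Figure D1:**
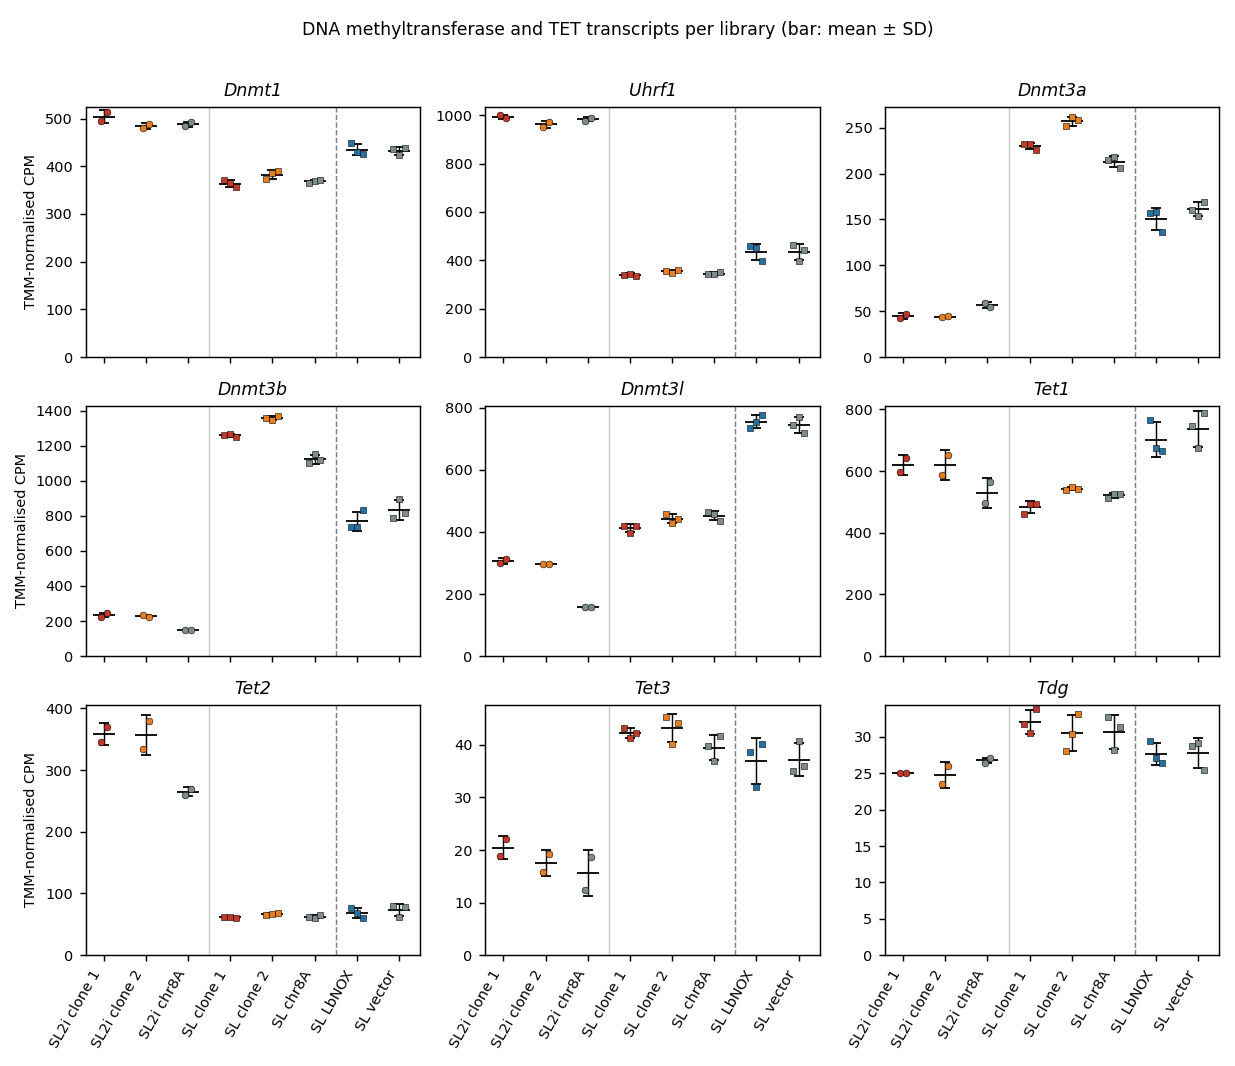
TMM-normalised CPM of the 9 members in each of the 21 libraries (points; circles SL2i, squares SL), with the mean and SD of each group as bars; the dashed line separates the 2 tables, which were normalized separately. Uhrf1 and Tet2 stand higher and Dnmt3a, Dnmt3b, Dnmt3l and Tet3 lower in every SL2i library than in every SL library.

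The comparison of SL2i with SL asks how the medium with both inhibitors changes these transcripts. In chr8A cells the genes for de novo methylation were much lower in SL2i, while Uhrf1 and Tet2 were much higher. Of the 9 members 8 were called, 3 higher and 5 lower, where 72.8% of 17178 genes were called, 36.1% higher and 36.8% lower. Such a share leaves the count near the background. By size, 6 members changed at least 2-fold, 2 higher and 4 lower, where 14.4% of genes were called and at least 2-fold higher and 20% lower.

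Dnmt3b, a de novo methyltransferase, had 149 and 151 CPM in SL2i chr8A libraries, against 1100.4, 1150 and 1119 CPM in SL chr8A libraries. Its groups lay far apart, and its log2 fold change was -2.91 ± 0.037, a 7.51-fold lower level (adjusted p = 1.94e-87, edgeR). Dnmt3a, the other de novo enzyme, had 58.9 and 54.1 CPM in SL2i and 215, 218 and 207 CPM in SL. It fell less than Dnmt3b, by a log2 fold change of -1.92 ± 0.047 (adjusted p = 4.66e-62, edgeR). For Dnmt3l, which stimulates both enzymes, the SL2i libraries held 158 and 157 CPM and the SL libraries 463, 459 and 435 CPM, a log2 fold change of -1.52 ± 0.037 (adjusted p = 5.49e-62, edgeR). No SL2i library of these 3 genes reached the lowest SL library. Reads of the 3 catalytic genes Dnmt1, Dnmt3a and Dnmt3b were split differently in the media. Dnmt1 took 70.3 ± 0.405% of them in SL2i (n = 2), against 21.6 ± 0.310% in SL (n = 3), and Dnmt3b took 21.6 ± 0.119% in SL2i, against 65.9 ± 0.378% in SL.

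Uhrf1 and Dnmt1, the pair that maintains methylation, both rose. Uhrf1, the reader of hemimethylated CpG, had 977 and 990.2 CPM in SL2i chr8A libraries, against 342, 344 and 350.2 CPM in SL chr8A libraries. It rose by 1.51 ± 0.03 on the log2 scale (adjusted p = 5.34e-70, edgeR), with every SL2i library above every SL library. Dnmt1, the copying methyltransferase, had 485 and 492 CPM in SL2i and 366, 369 and 370.1 CPM in SL, a log2 fold change of 0.41 ± 0.031 (adjusted p = 3.25e-22, edgeR). Reads of Uhrf1 per read of Dnmt1 were 2.02 and 2.01 in the SL2i libraries, against 0.934, 0.930 and 0.946 in the SL libraries. Genes of DNA replication moved the same way: of 17 S phase genes 15 rose and 1, Ccne1, fell, where 36.1% of all genes were called higher and 36.8% lower. These S phase genes summed to 5470 to 5540 CPM in SL2i chr8A and 3560 to 3670 CPM in SL chr8A. Their part in the change of Uhrf1 and Dnmt1 was not tested. Of the 30-base words of Uhrf1, 24.9% also occur in other genes, most often in its pseudogene Gm5648, which is not analysed here, so part of its reads could come from elsewhere.

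The 3 TET genes moved apart. Tet2 had 260.2 and 270 CPM in SL2i chr8A libraries, against 61.9, 60.5 and 64.9 CPM in SL chr8A libraries, a log2 fold change of 2.09 ± 0.042 (adjusted p = 6.78e-65, edgeR) with no overlap. Tet3, best known from the oocyte and zygote, had 12.5 and 18.7 CPM in SL2i and 39.8, 37.0 and 41.6 CPM in SL, and changed by -1.35 ± 0.098 (adjusted p = 6.17e-20, edgeR). Tet1, which has the most reads of the TET genes in every library, had 495 and 564 CPM in SL2i and 512, 526 and 524 CPM in SL. Its 2 SL2i libraries lay on either side of the SL libraries, and its log2 fold change of 0.02 ± 0.052 was not called (adjusted p = 0.714, edgeR; 95% interval -0.09 to 0.13). Without SL2i replicate 1 the value was 0.09 (adjusted p = 0.0446, edgeR), and without SL2i replicate 2 it was -0.09 (adjusted p = 0.0469, edgeR), so 1 library decided its sign. In every SL2i group replicate 2 held more CPM of Tet1, Tet2 and Tet3 than replicate 1. Tet2 supplied 32.8 ± 1.57% of TET reads in SL2i (n = 2), against 10.0 ± 0.298% in SL (n = 3).

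Tdg had 26.5 and 27.1 CPM in SL2i chr8A libraries and 32.7, 28.1 and 31.4 CPM in SL chr8A libraries, a log2 fold change of -0.20 ± 0.083 (adjusted p = 0.0273, edgeR). The call was lost without SL replicate 1 (-0.16, adjusted p = 0.0878, edgeR), without SL2i replicate 1 (-0.20, adjusted p = 0.101) and without SL2i replicate 2 (-0.23, adjusted p = 0.0529). Reads of Tdg are uncertain, because 48.4% of its 30-base words occur in other genes, chiefly Tdg-ps. The pseudogene Tdg-ps2, chosen after its values were seen, held 29.3 ± 1.76 CPM in SL2i and 59.2 ± 4.23 CPM in SL, and changed by -1.01 ± 0.07 (adjusted p = 2.31e-25, edgeR). Tdg took 47.6 ± 1.81% of the reads of Tdg, Tdg-ps and Tdg-ps2 in SL2i, against 33.7 ± 2.75% in SL.

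Both SLC16A1 clones responded to the medium in the same directions. All 9 members were called in clone 1 and in clone 2, 4 higher and 5 lower. Of all genes 73% were called in clone 1, 35.9% higher and 37.1% lower, and 73.1% in clone 2, 35.8% higher and 37.2% lower. Dnmt3b changed by -2.43 ± 0.036 in clone 1 and -2.57 ± 0.036 in clone 2, and Dnmt3a by -2.36 ± 0.05 and -2.55 ± 0.049. Dnmt3l changed by only -0.43 ± 0.034 in clone 1 and -0.57 ± 0.034 in clone 2. Uhrf1 rose by 1.55 ± 0.03 and 1.44 ± 0.03, and Tet2 by 2.54 ± 0.042 and 2.41 ± 0.04 (largest adjusted p of these 10 values 4.7e-21, edgeR). Tet1 rose by 0.36 ± 0.052 in clone 1 (adjusted p = 6.72e-06) and by 0.19 ± 0.051 in clone 2 (adjusted p = 0.00312, edgeR). In clone 2 the Tet1 call was lost without SL2i replicate 2 (0.10, adjusted p = 0.0501, edgeR).

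**Figure D2:**
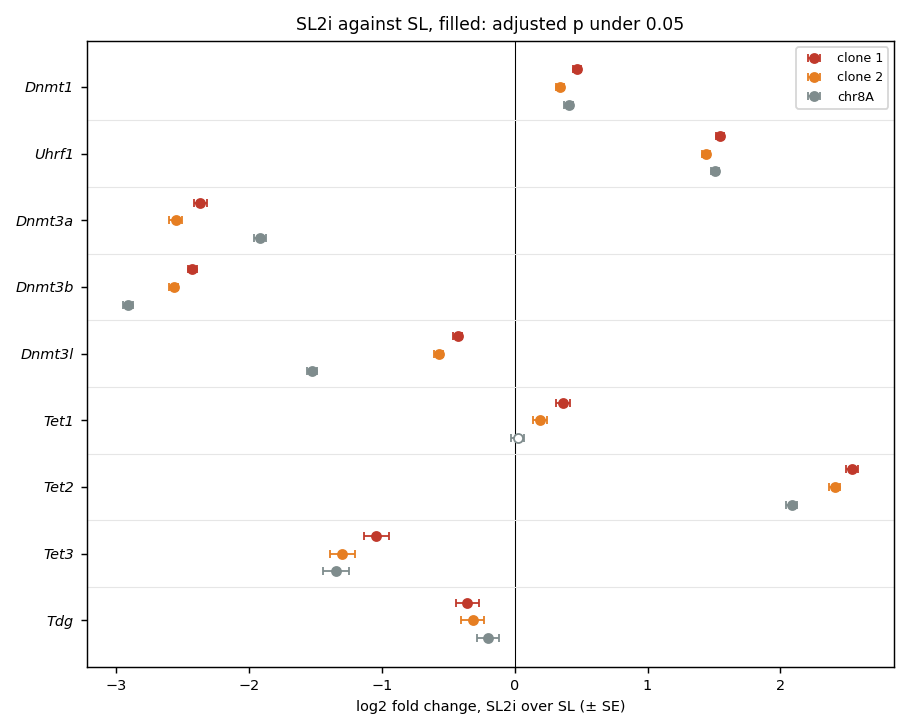
Log2 fold change of each member between SL2i and SL (horizontal axis, ± SE) in clone 1, clone 2 and chr8A; filled points passed an adjusted p under 0.05 and the open point did not. Dnmt3b lies furthest to the left in chr8A at -2.91, and Dnmt3l lies nearer 0 in both clones than in chr8A.

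The members were set beside other genes of the same system, in lists that were drawn up with earlier results of these data known. In chr8A cells the median log2 fold change between SL2i and SL over all genes was 0.001, and 36.1% of all genes were called higher and 36.8% lower, against which the list counts are to be read. Of 13 regulators of the members, 5 rose and 8 fell, with a median of -0.28. Prdm14, which represses the de novo methyltransferase genes in mouse embryonic stem cells, had 64.2 ± 4.13 CPM in SL2i (n = 2) and 4.93 ± 0.805 CPM in SL (n = 3), and rose by 3.70 ± 0.093 (adjusted p = 6.37e-61, edgeR). Nanog, a pluripotency factor, rose by 2.14 ± 0.031. Lin28a, an RNA-binding protein, changed by -2.54 ± 0.038 and Qser1, known from human cells to limit DNA methyltransferases at promoters, by -1.80 ± 0.043. Dppa3, which keeps UHRF1 from chromatin, held 31.5 ± 0.417 CPM in SL2i and 109 ± 5.91 CPM in SL, a log2 fold change of -1.79 ± 0.063 (adjusted p = 1.48e-46, edgeR). Of the 30-base words of Dppa3 30.4% occur in other genes, of Nanog 11.1% and of Lin28a 5.2%, which leaves these 3 values uncertain.

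Among 10 genes listed as maintenance partners 7 rose and 2 fell, with a median log2 fold change of 0.24. Paf1, whose place in this list is doubtful, was the gene not called. Pcna, the replication clamp and also among the S phase genes, rose by 1.36 ± 0.035, the DNA ligase gene Lig1 by 0.84 ± 0.032 and the remodeller Hells by 0.19 ± 0.031. Cdca7l changed by -2.02 ± 0.1 and Uhrf2, the paralog of Uhrf1, by -0.95 ± 0.066 (largest adjusted p of the 5 values 4.74e-08, edgeR). Shared sequence makes Pcna (23.6%), Cdca7l (22.8%) and Lig1 (5.15%) uncertain. In the list of imprint and repeat protection 6 of 10 rose and 3 fell, with a median of 0.19. Zfp57, a zinc finger protein that keeps imprints methylated, rose by 1.59 ± 0.032, and Smchd1, a factor of X inactivation, changed by -0.80 ± 0.042. Of 10 histone enzymes that guide de novo methylation 2 rose and 6 fell, with a median of -0.17. The histone H3 lysine methyltransferases Ehmt1 and Nsd2 changed by -0.80 ± 0.044 and -0.65 ± 0.049, and Nsd1 rose by 0.49 ± 0.034.

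Genes listed as readers of methylated CpG rose in 5 of 8 cases and fell in 2, with a median log2 fold change of 0.26. Zbtb38 rose by 1.18 ± 0.075, while Zbtb33 changed by -0.89 ± 0.079, with 8.69% of its words shared. Mbd3, whose place in this list is doubtful, changed by -0.38 ± 0.044. In the methyl donor cycle 8 of 11 rose and 2 fell, with a median of 0.53. Bhmt, which remethylates homocysteine from betaine, had 356 reads over 2 SL2i libraries and 2 reads over 3 SL libraries, with 30.5% of its words shared with other genes. Mtr, methionine synthase, rose by 0.86 ± 0.049, and Mat2a, which makes S-adenosylmethionine, was not called at 0.06 ± 0.032 (adjusted p = 0.108, edgeR), with 19.9% of its words shared. Enzymes that make or use 2-oxoglutarate, the cosubstrate of TET enzymes, rose in 8 of 14 cases and fell in 3, with a median of 0.14. Idh2, mitochondrial isocitrate dehydrogenase, rose by 1.42 ± 0.037, while the phosphoserine aminotransferase gene Psat1 changed by -0.94 ± 0.033. Base excision repair genes moved both ways, 6 higher and 5 lower of 13 with a median of -0.06, among them the uracil glycosylase gene Ung at 0.93 ± 0.045 and Gadd45a at -2.75 ± 0.096, of whose words 17.1% are shared.

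Germline genes known to be silenced by promoter methylation did not rise as a group in SL2i. Of 15 tested, 5 rose and 8 fell, with a median log2 fold change of -0.61. Tex19.1, a germ cell gene, rose by 0.96 ± 0.079, and Tuba3a by 2.32 ± 0.13 with 52.4% of its words shared. Ddx4, a germ cell RNA helicase, changed by -2.01 ± 0.13. Tdrd1, of the piRNA pathway, had 4 reads over 2 SL2i chr8A libraries and 507 reads over 3 SL chr8A libraries.

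**Figure D3:**
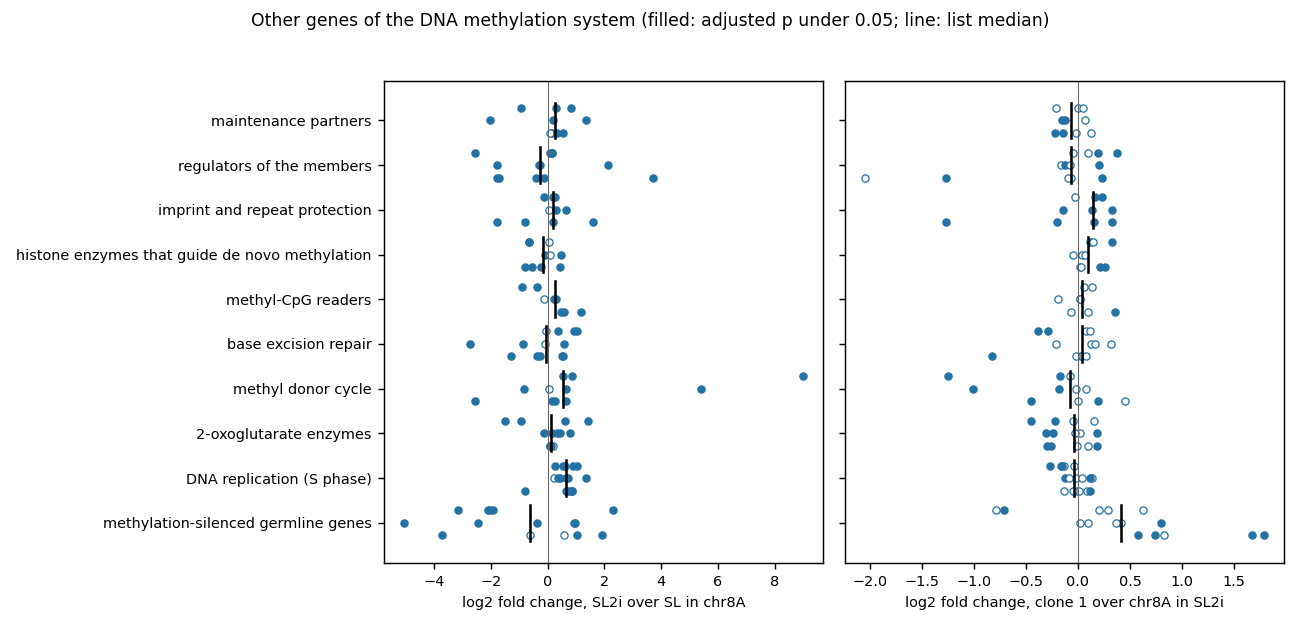
Log2 fold changes of the tested genes of 10 lists (horizontal axis; points filled where the adjusted p was under 0.05, list medians as black lines), for SL2i over SL in chr8A on the left and clone 1 over chr8A in SL2i on the right. S phase genes have a median of 0.66 on the left, and the point furthest to the right there is Bhmt, which rests on 2 reads in SL.

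The comparison of the SLC16A1 clones with chr8A asks which transcripts differ in cells altered at this transporter. In SL2i the clones held more Dnmt3l, Dnmt3b, Tet2 and Tet1 and less Dnmt3a than chr8A. In clone 1, 6 of 9 members were called, 5 higher and 1 lower, where 22.4% of genes were called, 10.4% higher and 12.1% lower. For clone 2, 5 were called, 4 higher and 1 lower, where 20.6% of genes were called, 9.74% higher and 10.8% lower. Both clones were compared with the same 2 chr8A libraries, so their values are not independent of each other.

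Dnmt3l had 299 and 313 CPM in clone 1 and 296 and 298 CPM in clone 2, against 158 and 157 CPM in chr8A, all in SL2i. All 4 clone libraries were well above both chr8A libraries. Its log2 fold change was 0.96 ± 0.041 in clone 1 (adjusted p = 2.66e-38) and 0.92 ± 0.041 in clone 2 (adjusted p = 1.04e-36, edgeR). Dnmt3b had 225 and 244 CPM in clone 1 and 233 and 225 CPM in clone 2, against 149 and 151 CPM in chr8A. It rose by 0.65 ± 0.041 in clone 1 and 0.61 ± 0.041 in clone 2 (adjusted p = 3.29e-26 and 1.13e-24, edgeR), again without overlap. Of the words of Dnmt3b, 13.7% also occur in other genes, most often in its close relative Dnmt3c, which is not analysed here, so its reads could include some of theirs.

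Dnmt3a went the other way. It had 42.4 and 46.8 CPM in clone 1 and 43.7 and 44.3 CPM in clone 2, against 58.9 and 54.1 CPM in chr8A. The log2 fold change was -0.34 ± 0.066 in clone 1 (adjusted p = 2.34e-05) and -0.36 ± 0.066 in clone 2 (adjusted p = 6.64e-06, edgeR), on 402 to 609 reads per library. Within a library, Dnmt3b reads per read of Dnmt3a were 5.30 and 5.20 in clone 1 and 5.34 and 5.07 in clone 2, against 2.52 and 2.79 in chr8A. In SL the same ratio was 5.44, 5.44 and 5.53 in clone 1 and 5.39, 5.14 and 5.29 in clone 2, against 5.12, 5.27 and 5.42 in chr8A. In SL2i the clone libraries thus ran from 5.07 to 5.34, beside 5.12 to 5.53 in the SL libraries of this table, and both SL2i chr8A libraries lay far below. Such ratios do not depend on how libraries are scaled to each other.

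Tet2 had 346 and 371 CPM in clone 1 and 335 and 380.3 CPM in clone 2, against 260.2 and 270 CPM in chr8A. Its log2 fold change was 0.43 ± 0.043 in clone 1 (adjusted p = 1.84e-14) and 0.43 ± 0.043 in clone 2 (adjusted p = 2.43e-14, edgeR). Tet1 had 597 and 643 CPM in clone 1 and 586 and 653 CPM in clone 2, against 495 and 564 CPM in chr8A. Its differences of 0.23 ± 0.058 and 0.23 ± 0.058 passed as well (adjusted p = 0.00761 and 0.00838, edgeR), although the higher chr8A library, at 564 CPM, came near the lowest clone library, at 586 CPM. Tet3 had 18.9 and 22.0 CPM in clone 1 and 15.7 and 19.2 CPM in clone 2, against 12.5 and 18.7 CPM in chr8A. The Tet3 call in clone 1, 0.40 ± 0.13 (adjusted p = 0.018, edgeR), was lost without chr8A replicate 1 (0.14, adjusted p = 0.575) and without clone 1 replicate 2 (0.29, adjusted p = 0.246). In clone 2 Tet3 was not called at 0.17 ± 0.13 (adjusted p = 0.419, edgeR), but was without chr8A replicate 2 (0.49, adjusted p = 0.0193), so it rests on single libraries.

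No difference of the maintenance pair between the lines was called. Dnmt1 had 494 and 513 CPM in clone 1 and 479.9 and 488 CPM in clone 2, against 485 and 492 CPM in chr8A in SL2i. Uhrf1 had 1000.2 and 988 CPM in clone 1 and 953 and 972 CPM in clone 2, against 977 and 990.2 CPM in chr8A. The libraries of the 3 lines lay close together, and the 95% intervals for Uhrf1 were -0.05 to 0.08 in clone 1 and -0.10 to 0.03 in clone 2 on the log2 scale. Those for Dnmt1 were -0.03 to 0.11 and -0.08 to 0.06. Tdg was not called either, at -0.10 ± 0.1 in clone 1 and -0.11 ± 0.1 in clone 2 (adjusted p = 0.579 and 0.512, edgeR). S phase genes summed to 5400 to 5480 CPM in clone 1 and 5450 to 5460 CPM in clone 2, against 5470 to 5540 CPM in chr8A. Trophoblast markers summed to 32.7 to 39.8 CPM in the clones, against 20.4 to 22.7 CPM in chr8A, with 2 of 4 tested higher in each clone; their part in the members' differences was not tested.

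**Figure D4:**
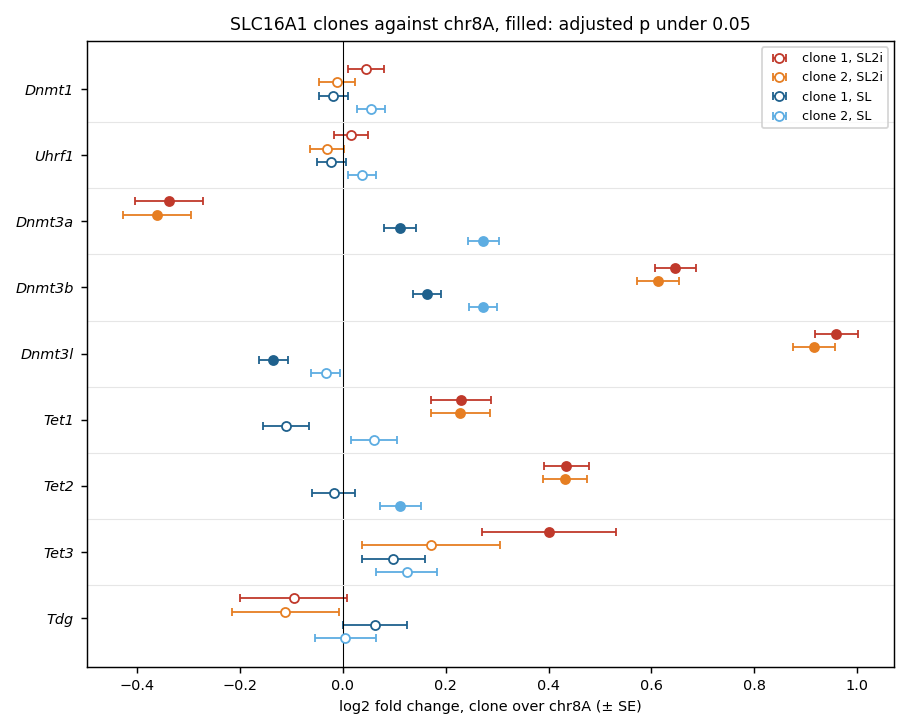
Log2 fold change of each member between a clone and chr8A (horizontal axis, ± SE), in SL2i and in SL; filled points passed an adjusted p under 0.05. Dnmt3a lies left of 0 in SL2i and right of 0 in SL in both clones, and Dnmt3l has its largest values, 0.96 and 0.92, in SL2i.

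In SL the differences between clones and chr8A were smaller. In clone 1, 3 members were called, 2 higher and 1 lower, where 16.6% of genes were called, 8.83% higher and 7.77% lower. In clone 2 also 3 were called, all higher, where 26.9% of genes were called, 14.3% higher and 12.6% lower. Dnmt3b had 1261, 1265 and 1249.9 CPM in clone 1 and 1358, 1344 and 1367 CPM in clone 2, against 1100.4, 1150 and 1119 CPM in chr8A, and rose by 0.16 ± 0.027 in clone 1 and 0.27 ± 0.027 in clone 2 (adjusted p = 1.85e-06 and 2.72e-14, edgeR). Dnmt3a had 232, 232 and 226 CPM in clone 1 and 252, 261 and 259 CPM in clone 2, against 215, 218 and 207 CPM in chr8A. It rose by 0.11 ± 0.031 in clone 1 (adjusted p = 0.00591) and 0.27 ± 0.03 in clone 2 (adjusted p = 1.92e-12, edgeR), so that its direction in SL was opposite to that in SL2i. The call in clone 1 was lost without chr8A replicate 3 (0.08, adjusted p = 0.0916, edgeR).

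Dnmt3l had 419.7, 397 and 418 CPM in clone 1 and 457, 428 and 441 CPM in clone 2, against 463, 459 and 435 CPM in chr8A in SL. It changed by -0.14 ± 0.028 in clone 1 (adjusted p = 0.000177, edgeR), and clone 2 overlapped chr8A. Tet2 had 62.5, 61.5 and 60.9 CPM in clone 1 and 65.4, 67.5 and 68.8 CPM in clone 2, against 61.9, 60.5 and 64.9 CPM in chr8A. It was called in clone 2 at 0.11 ± 0.04 (adjusted p = 0.028, edgeR). That call was lost without chr8A replicate 1 (0.10, adjusted p = 0.0837) or 2 (0.08, adjusted p = 0.172), and without clone 2 replicate 2 (0.10, adjusted p = 0.103) or 3 (0.09, adjusted p = 0.174). The other differences in SL were not called, and Dnmt1, Uhrf1, Tet1, Tet3 and Tdg lay between -0.11 and 0.12 on the log2 scale. Tet1 in clone 1 (-0.11 ± 0.045, adjusted p = 0.115, edgeR) had 461, 493 and 494 CPM, all below the 512, 526 and 524 CPM of chr8A. It was called with no filter (adjusted p = 0.0134), on the compared groups alone (0.000648) and after thinning (0.04), with values of -0.10 to -0.11. Tet3 in clone 2 passed only without clone 2 replicate 2 (0.17, adjusted p = 0.0477, edgeR).

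Whether the medium acted differently in the clones was tested as an interaction, the change between SL2i and SL in a clone minus that in chr8A. In clone 1, 5 members were called, 4 positive and 1 negative, where 17% of genes were called, 7.78% positive and 9.24% negative. In clone 2, 4 were called, 3 positive and 1 negative, where 16.9% of genes were called, 7.69% positive and 9.18% negative. Dnmt3l had the largest values, 1.09 ± 0.05 in clone 1 and 0.95 ± 0.05 in clone 2 (adjusted p = 1e-35 and 4.71e-31, edgeR). Dnmt3b was positive at 0.48 ± 0.049 and 0.34 ± 0.049, and Tet2 at 0.45 ± 0.06 and 0.32 ± 0.058. Dnmt3a was negative at -0.45 ± 0.073 and -0.63 ± 0.072 (largest adjusted p of these 6 values 1.25e-05, edgeR). Tet1 passed in clone 1 at 0.34 ± 0.073 (adjusted p = 0.00339) and not in clone 2 at 0.17 ± 0.073 (adjusted p = 0.14, edgeR). In clone 2 it did pass without SL2i chr8A replicate 2 (0.28, adjusted p = 7.65e-05) and without SL2i clone 2 replicate 1 (0.25, adjusted p = 0.00229). It also passed with no filter (adjusted p = 0.0138) and on the compared groups alone (0.0343), each at 0.17 on the log2 scale. Dnmt1, Uhrf1, Tet3 and Tdg were not called in either clone, with values of -0.16 to 0.30. Tet3 in clone 1 passed only without SL2i chr8A replicate 2 (0.63, adjusted p = 0.0032, edgeR).

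**Figure D5:**
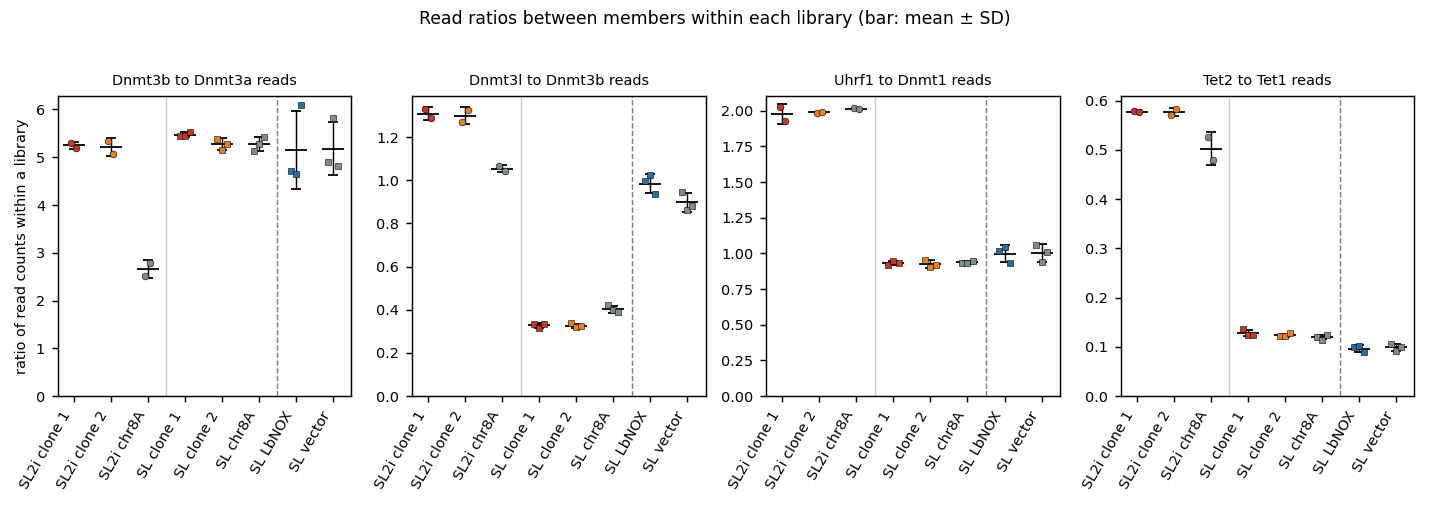
Ratios of raw read counts between 2 members within each library (points; circles SL2i, squares SL), with the mean and SD of each group as bars; the dashed line separates the 2 tables. Dnmt3b reads per Dnmt3a read lie at 2.52 and 2.79 in SL2i chr8A and at 4.65 or more in every other library, whereas Uhrf1 reads per Dnmt1 read separate SL2i from SL in each line.

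Other ratios followed the medium, with a smaller step between the lines. Dnmt3l reads per Dnmt3b read were 1.33 and 1.29 in clone 1 and 1.27 and 1.33 in clone 2, against 1.06 and 1.04 in chr8A in SL2i. In SL they were 0.327 ± 0.0115 in clone 1 and 0.326 ± 0.00952 in clone 2, against 0.403 ± 0.0163 in chr8A (mean ± SD, n = 3 each). The clones were therefore above chr8A in SL2i and below it in SL. Tet2 reads per Tet1 read were 0.579 and 0.576 in clone 1 and 0.571 and 0.582 in clone 2, against 0.526 and 0.479 in chr8A in SL2i.

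Between the 2 clones, members differed in SL and not detectably in SL2i. Clone 2 held more Dnmt3a (0.16 ± 0.031), Tet1 (0.17 ± 0.045), Dnmt3b (0.11 ± 0.027) and Dnmt3l (0.10 ± 0.029) than clone 1 in SL (adjusted p = 0.000112, 0.0417, 0.00743 and 0.0191, edgeR), 4 members where 4.4% of genes were called, 1.69% higher and 2.71% lower. Their log2 sizes were small, and 3 of the 4 calls were lost when some single libraries were left out. Dnmt3b was lost without clone 1 replicate 1 or 3 or clone 2 replicate 3 (0.10, 0.10 and 0.10, adjusted p = 0.0661, 0.0885 and 0.1). Dnmt3l was lost without any of 5 of the 6 libraries, clone 2 replicate 2 being the exception (0.07 to 0.11, adjusted p = 0.0526 to 0.271). Tet1 was lost without clone 1 replicate 1 or any clone 2 library (0.13 to 0.18, adjusted p = 0.0638 to 0.0928). DESeq2 did not call Dnmt3l (adjusted p = 0.102) or Tet1 (adjusted p = 0.0864), and Dnmt3l was also lost with RLE size factors, no filter and thinning (adjusted p = 0.0545, 0.0793 and 0.33). Dnmt3a kept its call without any of the 6. In SL2i edgeR called 0 members, 0 had an unadjusted p under 0.05, and DESeq2 called 0, where 0.157% of genes were called. There, differences ran between -0.23 for Tet3 and -0.0013 for Tet1, and the 95% interval for Dnmt3l was -0.12 to 0.03.

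Partner genes in the clones in SL2i were followed in the same lists, where 22.4% of all genes were called in clone 1 and 20.6% in clone 2. Among 13 regulators 4 rose and 2 fell in each clone, with medians of -0.07 in clone 1 and -0.03 in clone 2, beside -0.004 and -0.002 over all genes. Dppa3 held 13.2 ± 2.46 CPM in clone 1 and 15.02 ± 0.602 CPM in clone 2, against 31.5 ± 0.417 CPM in chr8A, and changed by -1.27 ± 0.11 and -1.07 ± 0.1 (adjusted p = 1.37e-17 and 8.36e-15, edgeR). The interaction with the medium was -1.09 ± 0.12 and -0.82 ± 0.11 for Dppa3 (adjusted p = 7.72e-13 and 6.69e-09, edgeR). Prdm14 was not called in SL2i, at -0.10 ± 0.082 in clone 1 and -0.11 ± 0.082 in clone 2 (adjusted p = 0.433 and 0.372, edgeR). Sall4, a zinc finger factor of stem cells, rose by 0.37 ± 0.037 and 0.27 ± 0.037 with 8.43% of its words shared, and Zfp281, another zinc finger factor, by 0.23 ± 0.044 and 0.25 ± 0.044.

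For imprint and repeat protection, 6 of 10 were called higher and 3 lower in clone 1, with 5 higher and 2 lower in clone 2, and medians of 0.14 and 0.12. Zfp57 rose by 0.33 ± 0.035 and 0.33 ± 0.035, and its corepressor gene Trim28 by 0.33 ± 0.034 and 0.25 ± 0.034. Genes listed as maintenance partners, the doubtful Paf1 among them, were 0 higher and 4 lower of 10 in clone 1. In clone 2 they were 0 higher and 2 lower, with medians of -0.07 in clone 1 and -0.02 in clone 2. Cdca7, a partner of Hells, changed by -0.22 ± 0.044 and -0.15 ± 0.044. Among histone enzymes 4 of 10 rose in clone 1 and 3 in clone 2, none fell, and Nsd2 rose by 0.33 ± 0.059 and 0.28 ± 0.059. Of 8 genes listed as methyl-CpG readers, the doubtful Mbd3 among them, 1 rose in each clone, Mbd1, by 0.36 ± 0.076 and 0.33 ± 0.076.

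In the methyl donor cycle 1 of 11 was called higher and 5 lower in clone 1, with 1 higher and 4 lower in clone 2, and medians of -0.08 and -0.12. Bhmt changed by -1.25 ± 0.21 and -0.98 ± 0.21, on 144 reads in clone 1 and 180 in clone 2, against 356 in chr8A. Ahcy, which clears S-adenosylhomocysteine, changed by -0.45 ± 0.071 and -0.39 ± 0.07 with 71.6% of its words shared. Of 14 genes of 2-oxoglutarate 2 rose and 6 fell in each clone, Psat1 at -0.45 ± 0.038 and -0.32 ± 0.037 and Glud1, glutamate dehydrogenase, at 0.18 ± 0.035 and 0.13 ± 0.035 with 10.7% shared. Base excision repair genes were 0 higher and 3 lower of 13 in clone 1 and 1 higher and 1 lower in clone 2.

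Germline genes silenced by methylation summed to 158 to 161 CPM in clone 1 and 165 to 171 CPM in clone 2, against 113 to 115 CPM in chr8A, all in SL2i. Of 15 tested, 5 were called higher and 1 lower in clone 1, with 4 higher and 0 lower in clone 2, and medians of 0.42 and 0.25. Much of the difference in the sums came from Tex19.1, the gene with the highest level of the list in each line. Tex19.1 held 68.5 ± 1.97 CPM in clone 1 and 76.8 ± 3.02 CPM in clone 2, against 39.4 ± 2.71 CPM in chr8A (n = 2 each). It rose by 0.79 ± 0.08 and 0.96 ± 0.078 (adjusted p = 1.94e-14 and 3.92e-19, edgeR), with 6.63% of its words shared with other genes, most often Tex19.2. Hormad1, a meiosis gene, rose by 0.74 ± 0.15 and 0.68 ± 0.15, with 37% shared. In SL, 3 of 15 rose and 0 fell in each clone, where 8.83% of all genes were higher in clone 1 and 14.3% in clone 2. Of 17 S phase genes in SL, 1 was called higher and 2 lower in clone 1, with 9 higher and 1 lower in clone 2.

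The comparison of LbNOX with vector cells asks whether oxidation of NADH by an added enzyme changes these transcripts in SL. No difference was detected in any member. edgeR called 0 of 9, 0 had an unadjusted p under 0.05, and DESeq2 called 0, where 0.0372% of 16119 genes were called. Dnmt3b had 739, 736 and 831 CPM in LbNOX libraries, against 787, 894 and 816 CPM in vector libraries, the widest log2 difference at -0.12 ± 0.057 (adjusted p = 1, edgeR; 95% interval -0.24 to 0.01). Reads of LbNOX itself are not analysed here. The LbNOX libraries overlapped the vector libraries for this and every other member, where 9.64% of genes had groups that did not overlap. Tet2 had 75.8, 68.3 and 59.5 CPM in LbNOX libraries, against 79.7, 61.6 and 78.2 CPM in vector libraries, and the widest interval, -0.37 to 0.15. The narrowest were those of Dnmt1 at -0.07 to 0.09 and Dnmt3l at -0.06 to 0.10. LbNOX and vector cells held 435 ± 12.4 and 432 ± 8.70 CPM of Dnmt1, 435 ± 33.0 and 434 ± 33.6 of Uhrf1, and 755 ± 20.7 and 745 ± 25.3 of Dnmt3l. They held 150.5 ± 12.4 and 161 ± 7.87 CPM of Dnmt3a, 702 ± 56.1 and 737 ± 58.6 of Tet1, 36.9 ± 4.37 and 37.2 ± 3.11 of Tet3, and 27.6 ± 1.55 and 27.8 ± 2.09 of Tdg (mean ± SD, n = 3 each). None of the genes of the 10 partner lists was called either, with list medians between -0.03 and 0.03.

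The gene patterns most like those of the members were ranked by Pearson's r of log2 CPM over the 15 libraries of the chr8A and clone table, among the 9929 genes whose mean reached 3 log2 CPM. Nearest to Dnmt3b were B3gnt7 (r = 0.999), Pnp2 (0.999) and Zfp423 (0.998), to Uhrf1 Klf4, Ass1 and Nfatc2ip (each 0.999), and to Tet2 Ticrr, Senp3 and Fancm (0.999, 0.999 and 0.998). The libraries fall into 2 media, so r mostly follows the medium: 1470 genes had r over 0.95 with Dnmt3b, 1804 with Uhrf1 and 1642 with Tet2. For Dnmt3l only 64 genes did, led by Igf2 (0.987), Enox1 (0.986) and Actn4 (0.986). Within SL2i the levels of Dnmt3l separate the clones from chr8A, but so do those of Dnmt3b and Tet2.

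No source used here gives whether reads were counted by strand, and exons of Dnmt3a, Dnmt3l, Tet2 and Tdg overlap genes on the opposite strand by 133, 67, 43 and 367 bases in the reference annotation. Without strand, reads there cannot be told apart.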

How the data were processed

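Poly(A) RNA libraries (500 ng, RNA integrity of at least 9.3, 8 PCR cycles) were made with a stranded kit, per the labels' protocols. The authors deposited raw counts per gene in 2 tables, and these whole-number counts were used as deposited. The submitters' processing notes name DRAGEN 3.10, featureCounts, Subread and build GRCm39; no source used here gives the annotation or strand setting. The deposited gene length served for levels per kilobase.

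Members and partner lists were chosen with earlier results of these data known. Each table was filtered (filterByExpr), TMM-normalized and fitted separately with edgeR 4.0.16 (R 4.3.3, limma 3.58.1): quasi-likelihood F test, 1 mean per group, 12 comparisons, adjusted p over all genes tested (16119 and 17178). The 6 groups of the clone table shared 1 estimate of spread. Besides the members, the text names up to 2 higher and 2 lower genes of each list with the smallest adjusted p, and Prdm14, Dppa3, Zfp57, Pcna, Hells, Mat2a and Slc16a1. Not every list gene so named is described, and one is not reported here.

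Alternatives were RLE size factors, no filter, a filter of 1 CPM, DESeq2 1.42.0, the replicate number as a block, fits on the compared groups alone, counts thinned to equal depth, and each library left out in turn. Tested on simulated data, the LbNOX fit recovered 76.1% of genes changed 1.5-fold and 91% of those changed 2-fold, with 17 false among 194 calls. The chr8A medium fit recovered 83.6% and 86.6%, with 9 false among 186. At each of these sizes 67 genes were changed, all with a mean of at least 1 CPM. Between the media in chr8A 72.8% of genes were called, so rates with so few changed genes do not describe that comparison. The LbNOX comparison itself called 6 of 16119 genes, far fewer than its simulation. With so few calls a gene needs a smaller p to pass, so the simulated rates can overstate what that comparison could detect. Replicates of a group differed by more than sampling noise in every pair, so none was merged. Correlations of same-numbered libraries were over 0.1 in 1 of 3 cases in the LbNOX table and 1 of 33 in the other. The main fits did not pair libraries. Shared sequence is the share of a gene's 30-base words found in other genes of the GRCm38.p6 reference, and at 5% or more it is given.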

Additional observations from a re-analysis of the deposited data

Results flagged for a closer look

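The change between SL2i and SL differed between a clone and chr8A for 5 members in clone 1 and 4 in clone 2, by edgeR's interaction test. In clone 1 the differences of the log2 fold changes, clone minus chr8A, were 1.09 for Dnmt3l, 0.483 for Dnmt3b, 0.453 for Tet2, 0.340 for Tet1 and -0.449 for Dnmt3a. In clone 2 they were 0.949 for Dnmt3l, 0.341 for Dnmt3b, 0.321 for Tet2 and -0.634 for Dnmt3a. Both clones share the chr8A libraries, so the second set does not stand on its own.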

How the results depend on the processing

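Of 108 member changes, 56 were called and 48 of these kept their call under every setting. The 108 changes pool comparisons with different backgrounds, many of which share libraries. The share of all genes called ran from 0.0372% between LbNOX and vector to 73.1% between SL2i and SL in clone 2. The count of 56 thus has no single background and does not set the members apart from other genes. Over the called changes, 685 of 716 settings left the call in place and 31 removed it, with no change of sign. Of 52 changes not called, 8 were called under some setting. Tet1 between SL2i and SL in chr8A, not called, was 0.0946 without SL2i chr8A replicate 1 and -0.0945 without replicate 2, each with a call. DESeq2 did not call Tdg between SL2i and SL in chr8A (adjusted p = 0.0725) or Tet2 in clone 2 in SL (adjusted p = 0.106).

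For clone 2 against clone 1 in SL, 4 members were called, 2 with DESeq2 and 1 to 3 with a library left out. Over all genes, the LbNOX comparison called 6, and 24 with no filter, 14 with DESeq2 and 0 to 13 with a library left out. Clone 1 against chr8A in SL called 2850, and 1793 with DESeq2, 1827 after thinning and 2031 to 2506 with a library left out. Clone 2 called 4618, and 2865, 2956 and 3667 to 3973 under the same settings. Clone 2 against clone 1 in SL called 756, and 383 with DESeq2, 426 after thinning, 1223 on the compared groups alone and 371 to 603 with a library left out. In SL2i it called 27, and 11 on the compared groups alone and 16 to 40 with a library left out. The causes were not tested, beyond the fewer libraries or reads of some settings.

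With the replicate number as a block, edgeR called 3 genes between LbNOX and vector and 0 members. Under the block 7 members were called between SL2i and SL in chr8A, without Tdg, and 5 between the clones in SL, Tet2 being added (0.12, adjusted p = 0.0438). The block also called Tet1 in clone 1 against chr8A in SL (-0.11, adjusted p = 0.000845) and in the interaction for clone 2 (0.17, adjusted p = 0.00165). Same-numbered libraries correlated at 0.392, -0.506 and -0.318 in the LbNOX table and -0.074 to 0.113 in the other. Within SL2i the values were positive, at 0.036 to 0.076. With 2 libraries per group, both replicate numbers of a pair of groups must give the same value, so these are not 6 separate values. Such values over 2 or 3 libraries do not show pairing, and they cannot exclude replicate effects on single genes. Depth limits SL2i most: Tdg and Tet3 rest there on the fewest reads of the members.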
